A study of Arabidopsis thaliana with 6 samples.

Results

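The wall loosening genes described here are 42 in number: 19 expansin genes (17 of the alpha class, EXPA, and 2 of the beta class, EXPB) and 23 xyloglucan endotransglucosylase/hydrolase (XTH) genes, taken by locus identifier from the 31276 genes of the deposited table. All 42 were in the table, and the rule that lists them uses family membership, not measured values. RNA was sequenced from Arabidopsis thaliana hypocotyls of the wild-type accession Col-0, cut from 1-week-old seedlings and placed on callus-inducing medium. Each group has 3 libraries: day 7, after 7 days of culture on that medium, and day 0, directly after the cut. The design text calls them biological replicates without saying what was kept separate. P-values of the main fit rest on the spread between these samples, taken as a trend over all genes rather than gene by gene. All 6 libraries have the same genotype, and the tissue label reads callus for both groups, although the design text places the day 0 collection before any culture. The day 7 against day 0 comparison shows which wall loosening genes differ between the callus and the explant it grew from.

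Expansins and XTHs are secreted proteins that act on the primary cell wall of plants. Expansins loosen the contacts between cellulose microfibrils and matrix polysaccharides without cutting them, and they work best in the acidic wall that plasma membrane proton pumps maintain. XTHs cut the hemicellulose xyloglucan and join the cut end to another xyloglucan chain, or to water in the hydrolytic members, so they can rebuild as well as loosen the wall. Both are encoded by large families whose members differ in tissue, hormone and light response, and the elongating hypocotyl is a classic site of their expression.

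The values are TPM, a length-normalised transcript abundance, so levels of different genes can be set side by side while the sequencing depth is unknown. The deposited columns do not share a total: they sum to between 793808 and 908068 TPM at day 7 and between 811788 and 922411 TPM at day 0. Nuclear ribosomal RNA (4 genes) took 9.30% to 49.0% of these sums in day 7 libraries and 4.54% to 22.2% in day 0 libraries, least in replicate 2 of each group, which also had the highest median-of-ratios size factors (1.57 at day 7 and 1.23 at day 0). Day 0 replicate 3 stood apart in green tissue: the summed TPM of 3 photosynthesis markers was 1.38 to 2.9 at day 7, against 42.8, 32.2 and 523 at day 0. Markers of the epidermis were lower at day 7: the summed TPM of 5 epidermal genes was 22.2, 80.4 and 30.4 there, against 305, 634 and 377 at day 0. All 5 fell, beside 16.2% of all tested genes, and none was at 0 in any library. The number of falls was 4 without day 7 replicate 1, where PDF1 lost its call. It was 3 without day 7 replicate 3, without day 0 replicate 2 or without day 0 replicate 3, where PDF1 and PDF2 lost their calls. In bulk tissue fewer cells of a type and less RNA per cell cannot be told apart, and the part of epidermal cells in the results below was not tested.

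Most of the tested members were lower in the callus, and 3 of the XTH members were higher. Of the 35 members with at least 1 TPM in at least 3 libraries, 25 fell, 3 rose and 7 did not pass (limma with a variance trend, fitted to log2(TPM + 1) of 18608 genes, at a Benjamini-Hochberg adjusted p under 0.05). Over all tested genes 16.2% fell and 13.4% rose, which makes 29.6% in either direction. With library sizes set by median-of-ratios scaling, 26 members fell and 4 rose, beside 33.8% and 31.1% of all tested genes. TPM of the groups did not overlap for 28 members, 25 lower and 3 higher at day 7, where 19.5% and 19.3% of all tested genes were lower and higher without overlap. Among the 15 tested expansins 10 fell, 0 rose and 5 did not pass, with a median log2 difference of -1.59. Among the 20 tested XTHs 15 fell, 3 rose and 2 did not pass, with a median of -1.98, beside a median of 0.05 over all tested genes. Of the 35, 6 (EXPA7, EXPA11, EXPA16, EXPA17, XTH17 and XTH32) were below 1 TPM in every day 7 library. They were tested only through their day 0 values, so they had to be lower at day 7. Of the other 29, 19 fell and 3 rose. The expansin counts and median above include EXPA7, EXPA11, EXPA16 and EXPA17, and the XTH ones include XTH17 and XTH32. The same split was not made over all tested genes. Calls of 4 falls (EXPA8, EXPA9, XTH8 and XTH27) were lost when 1 library was left out, and the number of falls ran from 21 (without day 7 replicate 3, and also without day 0 replicate 2) to 26 (without day 7 replicate 2). Without day 0 replicate 3, 23 fell and 3 rose.

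**Figure D1:**
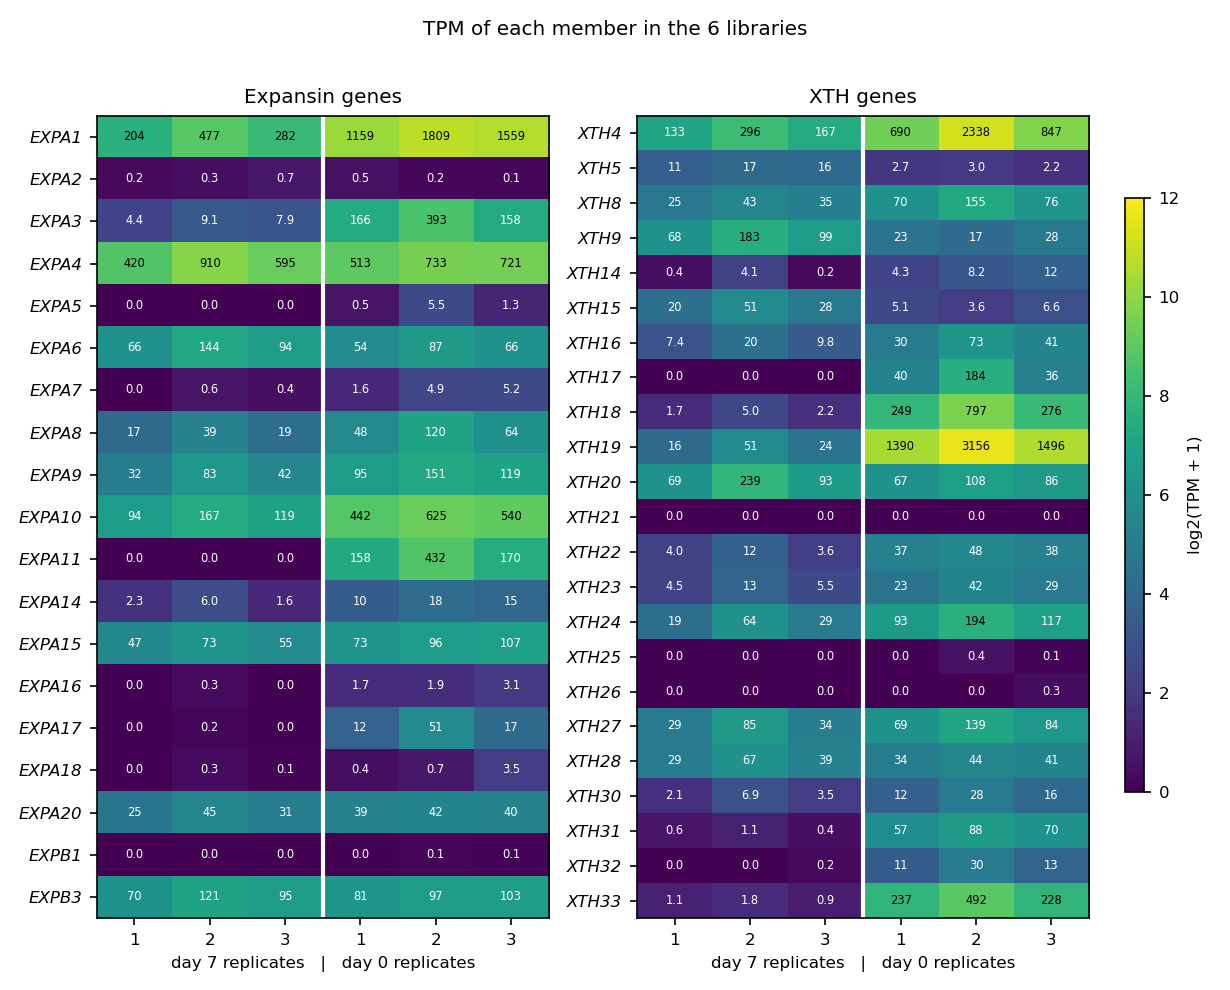
TPM of each of the 42 genes in the 3 day 7 libraries and the 3 day 0 libraries, with the TPM printed in each cell and log2(TPM + 1) as colour. The brightest cells are XTH19, XTH4 and EXPA1 at day 0, whereas EXPA4 is bright in both groups.

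The 42 members together took a smaller part of the transcriptome at day 7, and the XTH members more so than the expansin members. The 19 expansins summed to 982, 2075 and 1342 TPM at day 7, against 2857, 4669 and 3692 TPM at day 0. As a share of the table without ribosomal RNA they held 0.243%, 0.252% and 0.247% at day 7 and 0.452%, 0.530% and 0.499% at day 0. The 23 XTHs held 0.109%, 0.141% and 0.109% at day 7 and 0.498%, 0.903% and 0.479% at day 0. For both families the groups did not overlap on either measure, and the XTH share of day 0 replicate 2 stood above that of its 2 companions. Members with a mean of at least 10 TPM numbered 20 at day 7 and 30 at day 0.

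**Figure D2:**
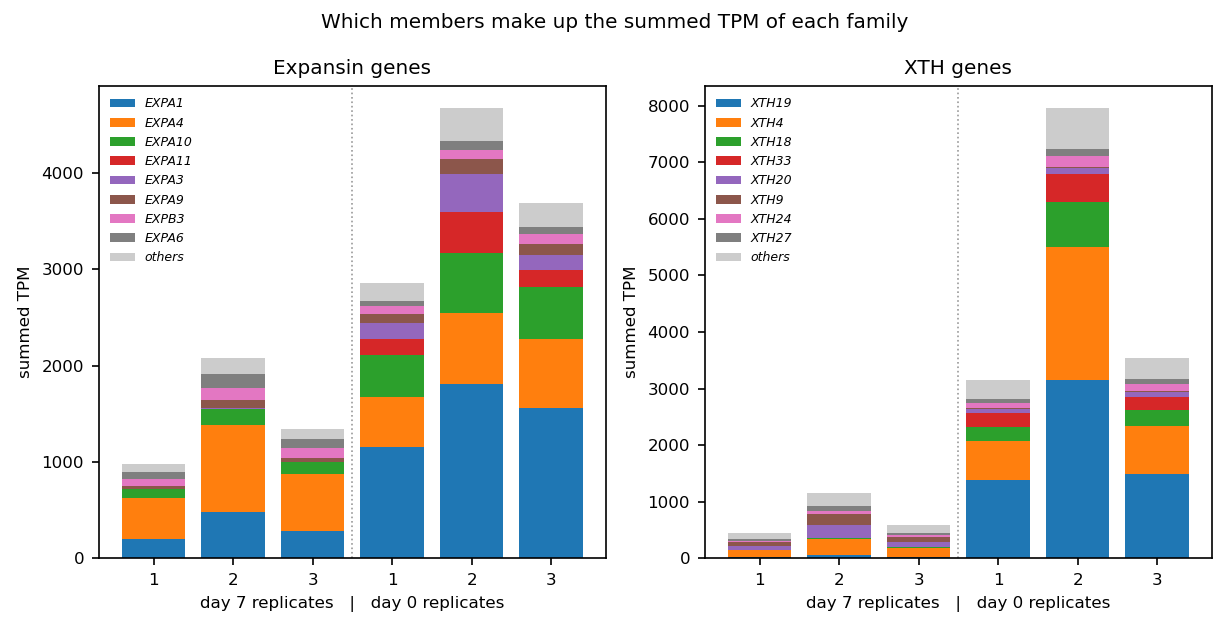
Summed TPM of the expansin genes and of the XTH genes in each day 7 and day 0 library, stacked by the leading members, with the remaining members in light grey. EXPA1 is the widest band of the day 0 expansins and EXPA4 that of the day 7 expansins, while the XTH19 band that fills much of the day 0 XTH columns is thin at day 7.

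The most abundant expansin was EXPA4 at day 7 and EXPA1 at day 0. EXPA1 (AT1G69530), an expansin studied in guard cells and in lateral root formation, had 204, 477 and 282 TPM in the day 7 libraries, against 1159, 1809 and 1559 TPM in the day 0 libraries. It averaged 321 ± 140.4 TPM at day 7 and 1509 ± 328 TPM at day 0 (SD, n = 3 each). The log2 difference was -2.30 with an SE of 0.42 (adjusted p = 7.50e-07 by limma). At day 0 it ranked 36th of all genes by mean TPM and at day 7 it ranked 246th. EXPA4 (AT2G39700) had 420.5, 909.6 and 595 TPM at day 7 and 513, 733 and 721 TPM at day 0, so its groups overlapped. Its log2 difference was -0.08 with an SE of 0.42 (adjusted p = 0.911 by limma), and it turned positive and passed under quantile normalization (0.71) and after rescaling without ribosomal and organelle genes (0.30). The ratio of EXPA4 to EXPA1, which does not depend on how a library is scaled, was 2.06, 1.91 and 2.11 at day 7, against 0.443, 0.405 and 0.463 at day 0. EXPA4 made up a mean of 43.6% of the summed expansin TPM at day 7 and 17.7% at day 0, and EXPA1 21.6% at day 7 and 40.5% at day 0.

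EXPA10 (AT1G26770), an expansin known from leaf and petiole growth, came next after EXPA1 and EXPA4 in both groups. It had 94.4, 167 and 119 TPM at day 7 and 442, 625 and 540.0 TPM at day 0, without overlap, a 4.23-fold lower mean (SE of the log2 difference 0.43, limma adjusted p = 8.23e-06). EXPA11, EXPA3 and EXPA17 fell further and were below 10 TPM in every day 7 library. EXPA11 (AT1G20190) was at 0 in each day 7 library and at 158, 432 and 169.6 TPM in the day 0 libraries, so no fold can be given. Its log2 difference of -7.83 with an SE of 0.44 (adjusted p = 4.77e-66 by limma) was the largest fall among the 42 genes, and its size depends on the pseudocount of 1. EXPA11 was tested only through its day 0 values, so it had to be lower at day 7 and the p-value is no support for that direction. EXPA3 (AT2G37640) had 4.39, 9.06 and 7.91 TPM at day 7 and 166, 393 and 158 TPM at day 0, and its mean was 33.6-fold lower at day 7 (log2 difference -4.80, SE 0.44, adjusted p = 3.11e-26 by limma). EXPA17 (AT4G01630) had 0, 0.16 and 0 TPM at day 7 and 12.5, 51.3 and 16.9 TPM at day 0, a log2 difference of -4.47. It too was tested only through its day 0 values. The test used only the variance trend over all genes and no variance of the single gene, so such small p-values rank genes rather than measure each gene's own spread.

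EXPA17 and EXPA14 are known as targets of the lateral root regulator LBD18. EXPA14 (AT5G56320) had 2.33, 6.05 and 1.59 TPM at day 7 and 10.2, 18.4 and 14.5 TPM at day 0, a log2 difference of -1.93 with an SE of 0.44 (adjusted p = 7.34e-05 by limma). Both were therefore lower in the callus, EXPA17 by the larger amount. EXPA8 (AT2G40610) had 16.65, 38.7 and 19.2 TPM at day 7 and 48.5, 120.3 and 63.95 TPM at day 0. EXPA9 (AT5G02260) had 32.1, 83.1 and 42.5 TPM at day 7 and 94.8, 151 and 119 TPM at day 0. Their groups did not overlap, and both fell, with log2 differences of -1.59 and -1.28 (limma adjusted p = 1.45e-03 and 0.0129). EXPA8 did not pass without day 7 replicate 3 or day 0 replicate 2 (log2 differences -1.46 and -1.23). EXPA9 did not pass without either of these or without day 0 replicate 3 (log2 differences -1.19, -1.11 and -1.29). EXPA16 (AT3G55500) fell at a low level, with 0, 0.27 and 0 TPM at day 7 and 1.71, 1.93 and 3.15 TPM at day 0.

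Beside EXPA4, 4 other expansins did not pass. EXPA6 (AT2G28950) had 65.6, 144 and 93.8 TPM at day 7 and 54.3, 87.3 and 66.5 TPM at day 0, and its log2 difference was 0.49 with an SE of 0.43 (adjusted p = 0.426 by limma). After median-of-ratios scaling the difference was 0.43 and passed (limma adjusted p = 2.91e-03). EXPA15 (AT2G03090) had 47.2, 73.2 and 54.8 TPM at day 7 and 73.3, 96.1 and 107 TPM at day 0, which did not overlap by a narrow margin. Its log2 difference was -0.65, and with median-of-ratios scaling it passed as lower (-0.72, limma adjusted p = 4.92e-03). EXPA20 (AT4G38210) had 24.6, 44.6 and 31.5 TPM at day 7 and 38.6, 42.3 and 40.3 TPM at day 0. The beta expansin EXPB3 (AT4G28250) had 70.4, 121 and 94.9 TPM at day 7 and 81.3, 97.2 and 103 TPM at day 0, a log2 difference of -0.0025 with an SE of 0.43 (adjusted p = 0.997 by limma). For EXPA20 and EXPB3 the groups overlapped, and both signs turned after rescaling without ribosomal and organelle genes, where EXPB3 passed as higher (0.38) and EXPA20 did not pass (0.07). EXPA20 passed as lower in the fit with a replicate block and median-of-ratios scaling (-0.37, limma adjusted p = 0.0214).

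The root hair expansins were scarce. EXPA7 (AT1G12560), which is specific to root hair cells in the intact plant, had 0, 0.61 and 0.42 TPM at day 7 and 1.55, 4.88 and 5.23 TPM at day 0, and fell by 1.78 on the log2 scale (limma adjusted p = 8.42e-07). EXPA7 was tested only through its day 0 values, so it had to be lower at day 7. EXPA18 (AT1G62980), its root hair partner, had 0, 0.27 and 0.09 TPM at day 7 and 0.36, 0.69 and 3.52 TPM at day 0 and was too low to be tested. Summed TPM of 6 root hair markers was 1.88, 12.1 and 3.75 at day 7 and 22.9, 45.4 and 47.6 at day 0. Of the 4 tested markers 3 fell (75%), beside 16.2% of all tested genes. Only 2 fell under each other scaling, with a replicate block, without day 7 replicate 3 and without day 0 replicate 3, where PRP3 lost its call. RSL4 and COBL9 were below 2 TPM in every library, and the part of root hair cells was not tested. The other untested expansins were EXPA2, EXPA5 and EXPB1. EXPA5 (AT3G29030), known from brassinosteroid-dependent growth, was listed at 0 in every day 7 library and at 0.54, 5.55 and 1.34 TPM at day 0, and EXPA2 and EXPB1 stayed at or below 0.7 TPM in every library.

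**Figure D3:**
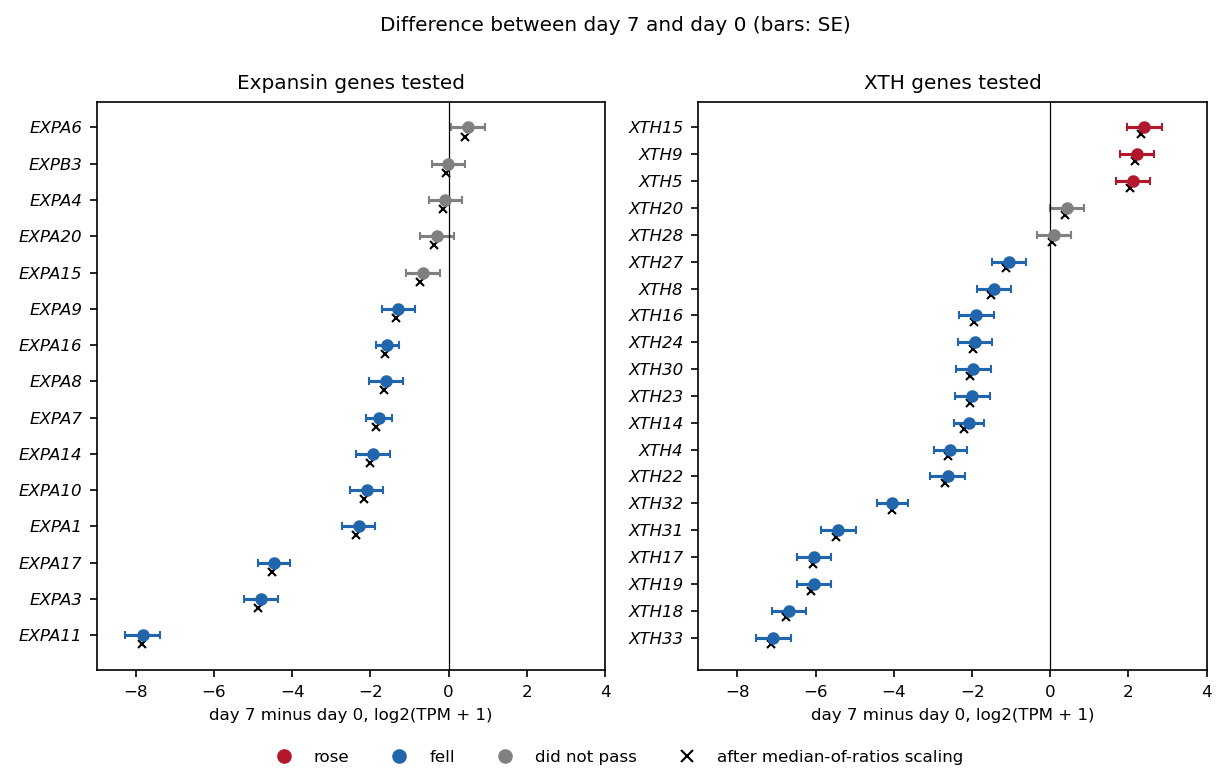
Difference between day 7 and day 0 on the log2(TPM + 1) scale for the 15 expansin and 20 XTH genes tested, with the SE as bars and the value after median-of-ratios scaling as a cross. Only XTH15, XTH9 and XTH5 are coloured as risen, and the falls reach -7.83 for EXPA11 and -7.08 for XTH33.

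XTH19, the most abundant XTH of the explant, belongs to a close group of relatives, in which XTH20 alone did not fall by the test. XTH17, XTH18, XTH19 and XTH20 have coding sequences that are 79.6% to 87.6% identical between any pair. XTH18 and XTH19 are direct neighbours on chromosome 4, next to XTH24, whereas XTH17 lies on chromosome 1 and XTH20 on chromosome 5. Their upstream sequences are shown because the 4 genes are so alike in their coding parts and so different in level; each is the 250 bases before the annotated gene start, read 5′ to 3′ on the gene's own strand from the RefSeq genome TAIR10.1. In XTH17 (chr1:24256804-24257053, plus strand) and XTH18 (chr4:14827212-14827461, minus strand) the capitals mark a run of 73 bases that is identical in both. The run reaches the gene start, where the windows end, and whether it continues past the start was not examined. In XTH19 (chr4:14830225-14830474, minus strand) nothing is marked, and in XTH20 (chr5:19481647-19481896, plus strand) the capitals mark CCGACA, the reverse complement of the auxin response factor motif TGTCGG.
XTH17: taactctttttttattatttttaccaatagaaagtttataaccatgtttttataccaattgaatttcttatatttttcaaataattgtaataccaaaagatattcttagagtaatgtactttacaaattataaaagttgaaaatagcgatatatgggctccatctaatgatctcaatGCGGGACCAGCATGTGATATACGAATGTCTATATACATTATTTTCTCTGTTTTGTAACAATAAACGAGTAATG
XTH18: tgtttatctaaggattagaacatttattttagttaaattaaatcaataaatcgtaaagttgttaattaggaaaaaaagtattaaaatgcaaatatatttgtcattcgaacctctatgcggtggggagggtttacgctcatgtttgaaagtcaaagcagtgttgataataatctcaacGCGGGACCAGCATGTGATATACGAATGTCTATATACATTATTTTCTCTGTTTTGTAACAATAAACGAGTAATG
XTH19: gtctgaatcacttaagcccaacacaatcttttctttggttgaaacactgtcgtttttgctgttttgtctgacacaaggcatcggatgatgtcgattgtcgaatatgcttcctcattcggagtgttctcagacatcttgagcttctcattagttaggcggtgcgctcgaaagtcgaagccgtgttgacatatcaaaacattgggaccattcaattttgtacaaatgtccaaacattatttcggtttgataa
XTH20: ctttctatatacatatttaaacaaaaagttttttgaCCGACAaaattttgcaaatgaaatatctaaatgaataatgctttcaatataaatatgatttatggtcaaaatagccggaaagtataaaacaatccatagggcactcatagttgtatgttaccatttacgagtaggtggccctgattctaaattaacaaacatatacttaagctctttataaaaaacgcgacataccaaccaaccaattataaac

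The next longest run shared by 2 of the 42 upstream windows was 17 bases. XTH17 and XTH18 thus have the same letters just before their starts, although they lie on different chromosomes. The longest run that XTH19 shares with either is 9 bases, and all 3 genes fell. A link between upstream letters and levels was not tested. XTH18 (AT4G30280) had 1.67, 5.04 and 2.19 TPM at day 7 and 249, 797 and 276 TPM at day 0, a log2 difference of -6.68 with an SE of 0.44 (adjusted p = 4.42e-50 by limma). XTH17 (AT1G65310) was at 0 in each day 7 library and at 40.4, 184 and 36.5 TPM at day 0 (log2 difference -6.04, limma adjusted p = 7.32e-41). XTH17 was tested only through its day 0 values, so it had to be lower at day 7. How reads that match more than 1 of these relatives were counted is not stated, so the level of each within the group is uncertain.

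XTH19 (AT4G30290) was the most abundant of the 42 genes at day 0, where it ranked 15th of all genes and made up a mean of 42.1% of the summed TPM of the 23 XTH members. It had 16.5, 51.3 and 23.8 TPM at day 7 and 1390.2, 3156 and 1496 TPM at day 0, which is a 65.9-fold lower mean (log2 difference -6.05, SE 0.43, adjusted p = 5.41e-43 by limma). XTH20 (AT5G48070), which together with XTH19 is known for a role in pith cell division when cut stems rejoin, did not pass. It had 69.2, 239 and 93.1 TPM at day 7 and 67.3, 107.6 and 85.6 TPM at day 0, so the groups overlapped, and its log2 difference was 0.43 with an SE of 0.43 (adjusted p = 0.489 by limma). It passed as higher under quantile normalization (0.82) and after rescaling without ribosomal and organelle genes (0.82), and its difference was -0.09 without day 7 replicate 2. The ratio of XTH20 to XTH19, free of library scale, was 4.196, 4.66 and 3.91 at day 7, against 0.0484, 0.0341 and 0.0572 at day 0. XTH20 made up 17.3% of the summed TPM of the 23 XTH members at day 7 and 1.97% at day 0.

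**Figure D4:**
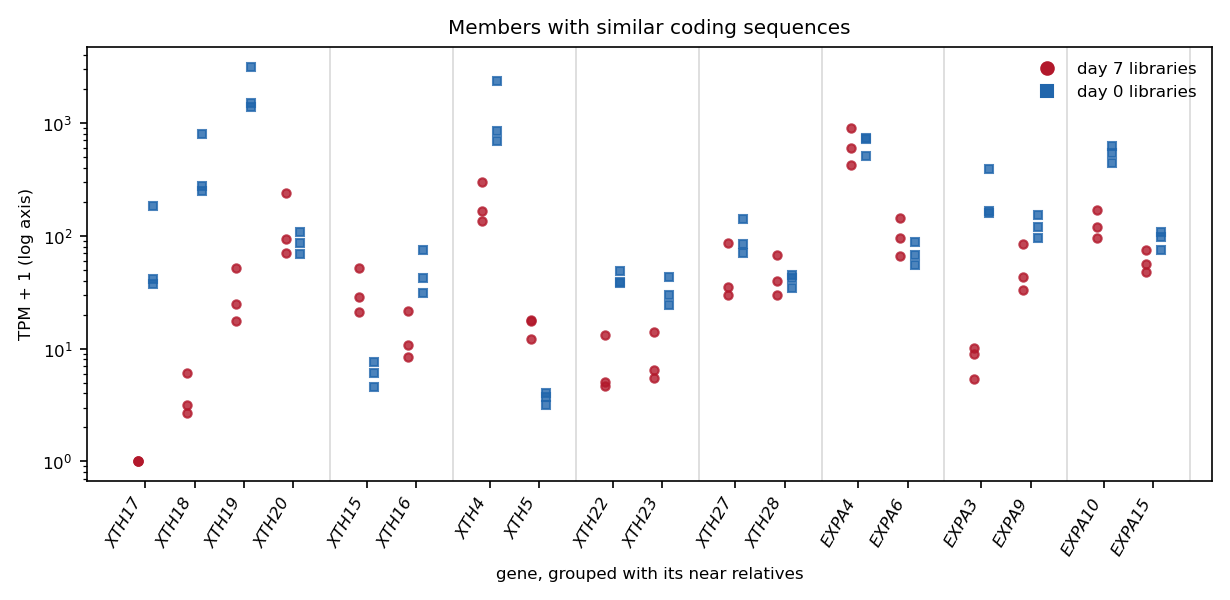
TPM + 1 on a log axis in each of the 3 day 7 libraries (circles) and 3 day 0 libraries (squares) for members set beside their near relatives by coding sequence. Circles lie below squares for XTH17, XTH18 and XTH19 but among them for XTH20, and they lie above them for XTH15 and XTH5 but below for XTH16 and XTH4.

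The XTH members share a short stretch that carries the active site. It is shown for 7 members that include falls, rises and XTH20, which did not pass. The 27 bases encode 9 residues, and capitals mark the codons of the 2 glutamates of the active site.
XTH18: gatGAGattgatttcGAGttcttagga
XTH19: gatGAGattgatttcGAGtttttgggg
XTH20: gatGAAatagattttGAGttcttggga
XTH15: gacGAGatagactttGAGtttctaggt
XTH9: aacGAAttcgattttGAGttcttaggg
XTH31: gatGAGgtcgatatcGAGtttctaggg
XTH33: gacGAGatagacataGAAttgttgggt
Both glutamate codons are present in all 7. Relative to XTH18, 3 of the 9 codons differ in XTH19, 4 in XTH20, 5 in XTH9, 5 in XTH31, 7 in XTH15 and 8 in XTH33. Of the 9 encoded residues, 0 differ in XTH19, XTH20 and XTH15, and 2 differ in each of XTH9, XTH31 and XTH33.

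The 3 XTH members that rose were XTH15, XTH9 and XTH5, and in each the groups did not overlap. XTH15 (AT4G14130), known as a target of shade signals in petioles, had 20.1, 50.75 and 27.8 TPM at day 7 and 5.08, 3.59 and 6.59 TPM at day 0, a 6.47-fold higher mean (log2 difference 2.41, SE 0.45, adjusted p = 7.37e-07 by limma). XTH9 (AT4G03210), known from stem and wood growth, had 68.2, 183 and 99.2 TPM at day 7 and 22.7, 17.4 and 27.7 TPM at day 0 (5.17-fold, log2 difference 2.22, SE 0.43, limma adjusted p = 3.04e-06). XTH5 (AT5G13870) had 11.1, 17.0 and 16.4 TPM at day 7 and 2.71, 3.03 and 2.18 TPM at day 0 (5.62-fold, log2 difference 2.11, SE 0.43, limma adjusted p = 1.16e-05). XTH9 made up 15.99% of the summed TPM of the 23 XTH members at day 7 and 0.574% at day 0. Among these members it came next after XTH4 and XTH20 at day 7. These 3 calls were kept under all 16 alternative settings.

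For 2 of the rises the nearest relative in the list moved the other way. XTH16 (AT3G23730), 80.8% identical to XTH15 in its coding sequence, had 7.36, 20.4 and 9.82 TPM at day 7 and 30.2, 73.4 and 41.4 TPM at day 0, and fell (log2 difference -1.89, limma adjusted p = 1.31e-04). The ratio of XTH15 to XTH16 was 2.74, 2.49 and 2.83 at day 7 and 0.168, 0.0489 and 0.159 at day 0. XTH4 (AT2G06850), 71.7% identical to XTH5, was second in abundance among the 23 XTH members at day 0 and first among them at day 7. It had 133, 296 and 167 TPM at day 7 and 689.6, 2338 and 847 TPM at day 0, a 6.50-fold lower mean (log2 difference -2.56, SE 0.43, adjusted p = 2.54e-08 by limma). Its share of the XTH sum was nevertheless similar, at 28.0% at day 7 and 25.1% at day 0.

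XTH31, XTH32 and XTH33 were below 2 TPM in every day 7 library. XTH31 (AT3G44990), known as a xyloglucan hydrolase of roots, had 0.59, 1.06 and 0.41 TPM at day 7 and 56.8, 87.8 and 70.2 TPM at day 0, a 104-fold lower mean (log2 difference -5.42, SE 0.44, adjusted p = 5.27e-32 by limma). XTH32 (AT2G36870) had 0, 0 and 0.18 TPM at day 7 and 10.7, 29.9 and 13.4 TPM at day 0 (log2 difference -4.04). XTH33 (AT1G10550), which carries a predicted membrane anchor, had 1.06, 1.82 and 0.87 TPM at day 7 and 237, 492 and 228 TPM at day 0, a 255-fold lower mean (log2 difference -7.08, SE 0.44, adjusted p = 2.10e-55 by limma). These calls held under all settings, but XTH32 was tested only through its day 0 values and had to be lower at day 7.

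XTH22, XTH23, XTH24, XTH30 and XTH8 fell by moderate amounts. XTH22 (AT5G57560), long known as TOUCH4 for its response to touch, had 4.01, 12.3 and 3.63 TPM at day 7 and 37.3, 47.6 and 37.8 TPM at day 0, and fell by 2.62 on the log2 scale (limma adjusted p = 4.52e-08). XTH23 (AT4G25810), 79.8% identical to it, had 4.46, 13.0 and 5.45 TPM at day 7 and 23.2, 42.1 and 28.7 TPM at day 0 (log2 difference -1.99, limma adjusted p = 5.93e-05). XTH24 (AT4G30270), first described as the meristem gene MERI5, had 19.4, 63.6 and 29.4 TPM at day 7 and 92.9, 194 and 117 TPM at day 0 (log2 difference -1.92, limma adjusted p = 7.26e-05). The groups did not overlap for any of these. XTH30 (AT1G32170) had 2.07, 6.94 and 3.55 TPM at day 7 and 11.99, 28.4 and 16.2 TPM at day 0, and fell by 1.96. XTH8 (AT1G11545) had 25.5, 43.3 and 34.9 TPM at day 7 and 69.95, 155 and 76.2 TPM at day 0, and fell by 1.45. The XTH8 call was lost without day 7 replicate 3 (log2 difference -1.47, limma adjusted p = 0.0578) and without day 0 replicate 2 (-1.09, limma adjusted p = 0.107).

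XTH27 and XTH28 are 77.5% identical in their coding sequences, and neither had groups that stood clear of each other. XTH27 (AT2G01850), known from developing leaf veins, had 28.8, 85.5 and 33.8 TPM at day 7 and 68.7, 139 and 83.5 TPM at day 0, and its groups overlapped. It passed narrowly (log2 difference -1.07, SE 0.43, adjusted p = 0.0469 by limma). The call was lost when any single library other than day 7 replicate 2 was left out (log2 differences from -0.77 to -1.28). XTH28 (AT1G14720), known for a role in stamen filaments, had 28.8, 66.8 and 38.9 TPM at day 7 and 33.5, 43.6 and 41.3 TPM at day 0, with overlap and a log2 difference of 0.10 with an SE of 0.44 (adjusted p = 0.891 by limma), and its sign turned without day 7 replicate 2 or without day 0 replicate 1. It passed as higher under quantile normalization (0.28) and after rescaling without ribosomal and organelle genes (0.48).

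Root hair XTHs were scarce as well. XTH14 (AT4G25820), which lies next to XTH23 on chromosome 4, had 0.37, 4.07 and 0.2 TPM at day 7 and 4.31, 8.21 and 11.7 TPM at day 0, and fell (log2 difference -2.07, limma adjusted p = 1.06e-06). XTH26 (AT4G28850) was listed at 0 except for 0.3 TPM in day 0 replicate 3. XTH25 reached 0.44 TPM at most, and XTH21 (AT2G18800), known from primary root growth, was listed at 0 in all 6 libraries.

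The upstream windows of the 42 genes were also searched on both strands for short motifs of regulators that act on wall genes. The G-box CACGTG, bound by light and shade factors, was in 0 of the 42 windows of 250 bases, against 6.49% of 27437 nuclear protein-coding genes, and in 11.9% of the members at 1000 bases against 14.8% of all. The auxin response motifs TGTCTC and TGTCGG were in 9.52% and 4.76% of the members at 250 bases and in 10.9% and 4.16% of all genes. The brassinosteroid response letters CGTGTG and CGTGCG were in 14.3% and 7.14% of the members and in 5.37% and 1.57% of all. The 3 members with CGTGCG were EXPA7, EXPA18 and EXPB3. The box TATAAA was in 52.4% of the members and 47.4% of all.

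Among the other genes of the 2 families, listed by locus from general knowledge, the largest changes went in both directions. Of 16 further expansin and expansin-like genes 6 were tested, of which 4 fell, 0 rose and 2 did not pass. The share that fell was 66.7%, beside 16.2% of all tested genes. The beta expansin EXPB2 (AT1G65680) was at 0 in each day 7 library and at 27.6, 49.9 and 25.8 TPM at day 0, and the expansin-like EXLA1 (AT3G45970) had 7.15, 27.7 and 10.97 TPM at day 7 and 68.9, 114 and 78.5 TPM at day 0. All 6 genes of the EXPA21 to EXPA26 cluster on chromosome 5 were listed at 0 in every library. Of 10 further XTH genes 3 were tested, of which 1 fell and 1 rose (33.3% each), beside 16.2% and 13.4% of all tested genes. XTH11 (AT3G48580) rose, with 128, 515 and 195 TPM at day 7 and 6.91, 5.76 and 9.4 TPM at day 0, a 38.0-fold higher mean (log2 difference 4.84, SE 0.43, adjusted p = 1.08e-26 by limma). Its day 7 mean of 279 TPM was above that of every XTH among the 23 members. XTH7 (AT4G37800) fell, with 1.14, 4.92 and 1.96 TPM at day 7 and 257, 552 and 300.2 TPM at day 0 (log2 difference -6.71, limma adjusted p = 2.38e-50), and XTH10 did not pass.

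Genes that make and trim xyloglucan, the substrate of the XTHs, were lower or did not pass. Of 13 synthesis genes 5 fell, 0 rose and 8 did not pass. The share that fell was 38.5%, beside 16.2% of all tested genes. CSLC4 (AT3G28180), the main synthase of the xyloglucan backbone, had 10.6, 29.9 and 15.0 TPM at day 7 and 157, 443 and 181 TPM at day 0 (log2 difference -3.71, SE 0.43, adjusted p = 3.98e-16 by limma). The other falls were the xylosyltransferases XXT1 and XXT5, the galactosyltransferase XLT2 and CSLC5. With libraries scaled by median of ratios, 8 fell (61.5%) and 1 rose (7.69%), beside 33.8% and 31.1% of all tested genes. Without day 7 replicate 2, 8 fell, and without day 0 replicate 2, 3 fell; XXT5 lost its call without day 0 replicate 2 or day 7 replicate 3, and XLT2 without day 0 replicate 2. None of 3 trimming genes passed, and the most abundant, the xylosidase gene XYL1 (AT1G68560), averaged 143 ± 68.6 TPM at day 7 and 256 ± 80.3 TPM at day 0 (SD over 3 libraries each). Its log2 difference of -0.89 did not pass (adjusted p = 0.101 in limma), but did with median-of-ratios scaling.

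Of 5 tested endoglucanase genes 3 rose (60%), 1 fell (20%) and 1 did not pass, where 13.4% of all tested genes rose and 16.2% fell. Without day 7 replicate 2, 2 fell, and without day 7 replicate 3 or day 0 replicate 1, 2 rose. CEL1 (AT1G70710), known from elongating cells, had 102, 213 and 144 TPM at day 7 and 20.0, 30.1 and 28.3 TPM at day 0 (5.85-fold, log2 difference 2.46, SE 0.43, adjusted p = 1.62e-07 by limma). GH9C1 (AT1G48930) fell at a low level, with 0.18, 0.92 and 0.39 TPM at day 7 and 2.12, 3.49 and 2.82 TPM at day 0. KOR1 (AT5G49720), which acts in cellulose synthesis, averaged 125 ± 51.9 TPM at day 7 and 217 ± 113 TPM at day 0 and did not pass. Of 11 tested pectin genes 7 fell (63.6%), 3 rose (27.3%) and 1 did not pass, where 16.2% of all tested genes fell and 13.4% rose. The pectin methylesterase gene AT3G49220 had 0.88, 3.59 and 1.52 TPM at day 7 and 185, 504 and 202 TPM at day 0 (log2 difference -6.58, limma adjusted p = 4.56e-48). Another of the same enzyme class, AT1G11580, had 477, 1080.2 and 632 TPM at day 7 and 114, 139 and 149 TPM at day 0 and rose 5.44-fold (log2 difference 2.36, limma adjusted p = 3.64e-07).

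The proton pumps that acidify the wall mostly did not pass. Of 9 tested AHA genes 0 fell, 1 rose and 8 did not pass. The share that rose, 11.1%, was near the 13.4% of all tested genes. AHA2 (AT4G30190), the most abundant at day 0, had 97.1, 245 and 114 TPM at day 7 and 164, 479.7 and 204 TPM at day 0 (log2 difference -0.85, SE 0.43, adjusted p = 0.124 by limma). AHA1 (AT2G18960), the most abundant at day 7, had 156, 318 and 208 TPM there and 121, 275 and 161 TPM at day 0. Its log2 difference of 0.31 did not pass (limma adjusted p = 0.630), but AHA1 passed as higher under quantile normalization and after rescaling without ribosomal and organelle genes. AHA9 (AT1G80660) rose at a low level, with 2.54, 3.85 and 3.42 TPM at day 7 and 0.12, 0.22 and 0.19 TPM at day 0. With median-of-ratios scaling 5 pumps rose (55.6%) and AHA2 fell, where 31.1% of all tested genes rose and 33.8% fell. Under quantile normalization and after rescaling 6 pumps rose (66.7%), beside 34.8% and 48.6% of all tested genes. Without day 7 replicate 1, 4 rose and 0 fell, and without day 7 replicate 2, 2 rose and 2 fell. Without day 0 replicate 2, 2 rose and 0 fell. Among 10 tested transcription factors of hypocotyl elongation 5 fell (50%), 1 rose (10%) and 4 did not pass, where 16.2% of all tested genes fell and 13.4% rose. PIF5 (AT3G59060), a light-regulated factor, had 0, 0.09 and 0 TPM at day 7 and 11.4, 29.6 and 14.8 TPM at day 0, and BES1 (AT1G19350), of the brassinosteroid pathway, averaged 36.6 ± 16.7 TPM at day 7 and 111 ± 63.3 TPM at day 0 and fell (limma adjusted p = 2.04e-03), a call lost without day 0 replicate 2. The auxin response factor gene ARF8 (AT5G37020) had 21.3, 50.9 and 28.3 TPM at day 7 and 9.99, 19.3 and 13.6 TPM at day 0 and rose 2.34-fold (limma adjusted p = 0.0383), a call lost without day 7 replicate 2, day 7 replicate 3, day 0 replicate 1 or day 0 replicate 3. Over the 60 tested genes of these 8 lists 23 fell (38.3%) and 9 rose (15.0%), beside 16.2% and 13.4% of all tested genes. The share that rose was thus near that of all genes.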

How the data were processed

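TransZol Up was used for RNA extraction and a TruSeq RNA kit for the libraries, per the labels. The deposited values are TPM, computed by the authors before deposition; the submitters' processing notes list RSEM 1.3.1, STAR 2.7.10a and the build TAIR10 without roles, and annotation version, filters and strand handling are not given in the sources used here. All 6 columns were used. Depth is unknown, so no counting intervals are given.

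A gene entered the test if 3 or more libraries had 1 TPM or more. The test was limma 3.58.1 (R 4.3.3), with its mean-variance trend, fitted to log2(TPM + 1). Fold changes are ratios of group mean TPM, and differences are on the log2(TPM + 1) scale, which understates changes of low genes. P-values were adjusted over all tested genes by the Benjamini-Hochberg method. Alternatives were 3 other scalings, pseudocounts of 0.1 and 0.5, no filter and a TPM minimum of 5, no variance trend, a replicate block with and without median-of-ratios scaling, and each library left out. The fit was tested on simulated data before use. The members and lists were chosen with earlier results of these data known, so no test over a list was made.

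Genes named with values in each library were every called rise and the 6 largest called falls of each class with a mean of at least 10 TPM. Also named were the 3 most abundant of each family in each group, members of at least 10 TPM that did not pass, and the root hair members. The remaining members were added for completeness. From each pathway list came the largest call in each direction and the most abundant gene; XXT1, XXT5, XLT2 and CSLC5 were added as the other falls.

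Names were matched by locus to RefSeq (TAIR10.1); 38 of the 42 names were the RefSeq symbols, and EXPA3, XTH22, XTH23 and XTH27 are EXP3, TCH4, XTR6 and EXGT-A3 there. Upstream and coding sequences were read with RefSeq annotation from the same TAIR10.1 assembly, whose nuclear chromosomes are those of TAIR10. Identity is identical bases over the longer coding sequence in a global alignment (Biopython 1.88). The active site stretch was found by a pattern search in the translated coding sequences. Figures used matplotlib 3.10.9.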

Additional observations from a re-analysis of the deposited data

How the results depend on the processing

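All 25 falls and 3 rises among the 35 tested members kept their calls under 3 other scalings and with a replicate block, and 0 turned direction under any of the 16 alternatives. Under all 16, 18 falls and 3 rises kept their calls. The 25 falls include the 6 members that were tested only through their day 0 values and had to be lower at day 7. Expansins that rose numbered 0 as deposited, 1 after median-of-ratios scaling, alone or with a replicate block, and 3 both under quantile normalization and after rescaling without ribosomal and organelle genes; XTHs that rose numbered 5 under each of the last 2. Over all genes the median difference (log2) was 0.05 as deposited, 0.09 under quantile normalization and 0.40 after rescaling. Turned signs among members that did not pass as deposited were EXPA4 (0.71 under quantile normalization, 0.30 after rescaling, 0.18 without day 7 replicate 1 and 0.0050 without day 0 replicate 2, with a leave-one-out range of -0.37 to 0.18), EXPB3 (0.36, 0.38, 0.20 and 0.026 under the same settings, and 0.068 without day 0 replicate 3, range -0.19 to 0.20), EXPA20 (0.072 after rescaling), XTH20 (-0.086 without day 7 replicate 2, range to 0.80) and XTH28 (-0.22 without day 7 replicate 2 and -0.0072 without day 0 replicate 1, range to 0.37). With a TPM minimum of 5, EXPA7, EXPA16 and XTH14 were no longer tested and XTH27 lost its call, as it did with no filter.

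Pathway genes that rose numbered 9 as deposited, 15 after median-of-ratios scaling, 17 under quantile normalization, 21 after rescaling, 18 with the replicate block and 16 with block and median-of-ratios scaling. Over all tested genes the falls numbered 3015 as deposited, 6296 after median-of-ratios scaling, 5276 under quantile normalization, 4886 with the replicate block and 6306 with both, and the rises 2497, 5785, 6479, 5233 and 5690; rescaling gave 9052 rises. Leaving out 1 library gave 2104 to 4966 falls (4966 without day 7 replicate 2) and 1432 to 3660 rises (1432 without day 0 replicate 1, 1456 without day 7 replicate 3 and 1472 without day 0 replicate 3). The cause of these differences in counts was not tested. Same-numbered libraries had residual correlations of 0.097, 0.16 and 0.032, and day 7 replicate 3 correlated best with day 0 replicate 1 (0.12), so the numbers were not taken to pair the libraries; with the replicate block EXPA15 passed as lower (limma adjusted p = 0.0203), and with block and median-of-ratios scaling EXPA20 did too (limma adjusted p = 0.0214).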

Other observations

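CEL5 (AT1G22880), an endoglucanase gene known from the root cap, rose beside the root cap regulators. It had 50.7, 135.8 and 73.4 TPM at day 7 and 13.9, 28.2 and 19.8 TPM at day 0, with a log2 difference of 1.95, SE 0.44 (adjusted p = 5.84e-05 by limma). The root cap factor SMB (AT1G79580) had 31.4, 76.3 and 45.6 TPM at day 7 and 12.1, 20.1 and 14.6 TPM at day 0. Its relative BRN1 (AT1G33280) had 24.4, 59.0 and 28.2 TPM at day 7 and 0.48, 0.74 and 0.4 TPM at day 0. All 3 root cap markers rose, beside 13.4% of all tested genes, and the part of these markers in the CEL5 value was not tested.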
